A study of Mus musculus with 6 samples.

Results

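Neurofilament genes and their closest relatives were examined for Dppa2 binding in mouse embryonic stem cells (ESCs). The group holds 8 genes of the 22367 protein-coding genes annotated on the chromosomes of the peak list, namely Nefm, Nefl, Nefh, Ina, Vim, Gfap, Prph and Nes. They were chosen by the Dppa2 peak at Nefm, which has one of the highest scores of the list, together with the gene family that Nefm belongs to, so the binding values below are a description and were not tested. Dppa2 is an ESC and germ line protein with a SAP DNA-binding domain. The data are an anti-V5 ChIP-seq on CGR8 cells, a feeder-free mouse ESC line, that stably expressed N-terminally V5-tagged Dppa2 from a pPyCAG-driven vector after puromycin selection of clones. The control ChIP used the CGR8 parent line, which expresses no V5 tag. Tagged Dppa2 therefore came from a transgene and not from its own promoter. Each condition had 1 library, so there is no replicate error, and ESC identity cannot be checked against marker levels in a list of peaks.

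Intermediate filaments are polymers built from rod-shaped proteins whose central coiled-coil domain is flanked by a head and a tail. They are cytoplasmic, except for those of the nuclear lamins. In neurons, the light, medium and heavy neurofilament proteins encoded by Nefl, Nefm and Nefh assemble together with internexin alpha, encoded by Ina, and set the calibre of large axons. Nestin, encoded by Nes, is the filament protein of neural progenitor cells and belongs with these to type IV. Vimentin (Vim), glial fibrillary acidic protein (Gfap) and peripherin (Prph) are type III proteins typical of mesenchymal cells, astrocytes and peripheral neurons, respectively. Apart from Vim and Nes, these genes are best known from differentiated neural cells and not from ESCs.

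The sequences below show the base composition at members with and without a peak, in mm9, with every CpG dinucleotide in capitals. The first lines give the 200 bases that precede the transcription start site (TSS), read on the strand of the gene. Nefh and Ina have a Dppa2 peak over these bases, and Prph, shown for comparison, has none.
Nefh, chr11:4848068-4848267, minus strand: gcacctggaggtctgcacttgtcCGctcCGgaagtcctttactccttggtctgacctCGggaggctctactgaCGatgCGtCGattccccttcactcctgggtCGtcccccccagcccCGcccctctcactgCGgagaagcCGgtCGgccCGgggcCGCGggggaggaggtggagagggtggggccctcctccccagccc
Ina, chr19:47088988-47089187, plus strand: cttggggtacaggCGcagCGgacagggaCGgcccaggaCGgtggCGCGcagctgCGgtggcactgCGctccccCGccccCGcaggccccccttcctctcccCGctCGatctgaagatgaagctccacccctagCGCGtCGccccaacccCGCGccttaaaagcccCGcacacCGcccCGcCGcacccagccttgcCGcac
Prph, chr15:98885405-98885604, plus strand: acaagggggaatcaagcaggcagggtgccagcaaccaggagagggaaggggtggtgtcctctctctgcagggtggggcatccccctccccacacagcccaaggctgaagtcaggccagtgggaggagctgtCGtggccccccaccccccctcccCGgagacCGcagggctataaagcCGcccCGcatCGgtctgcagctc
These windows hold 14 CpG in Nefh, 22 in Ina and 6 in Prph. The other members without a peak hold 19 in Nefl, 14 in Nes, 11 in Vim and 2 in Gfap. Nefl thus exceeds Nefh here and Nes equals it, so Prph does not stand for all members without a peak. The following line gives 120 bases of coding exon 1 at the middle of the Nefh peak.
Nefh, chr11:4847449-4847568, minus strand: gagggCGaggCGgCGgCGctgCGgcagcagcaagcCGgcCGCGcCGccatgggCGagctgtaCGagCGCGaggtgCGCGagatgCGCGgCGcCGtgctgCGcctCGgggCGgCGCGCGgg
This stretch of Nefh holds 25 CpG, and the 120 bases at the middle of the Ina peak hold 15. The Nefm midpoint lies from 400 to 499 bp downstream of the TSS, where 8 CpG were counted. From 500 to 599 bp downstream, Nefh holds 20 CpG, and Nes and Nefl, without a peak, hold 17 and 13. The Nefh stretch therefore does not stand for all peak centres.

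The deposited list holds 3336 Dppa2 peaks, named after TSSs, with scores from 100 to 3100 and a median of 228. As MACS computes it, the score is the -log10 of a p-value, multiplied by 10, for tagged cells against the parental control. It depends on the depth of the libraries, which is unknown here, and is no measure of occupancy by itself. A gene is called bound when the midpoint of a peak lies within 1000 bp of any of its annotated TSSs. By this rule 14.2% of all protein-coding genes were bound (3169 genes, 13.7 to 14.6% at 95% confidence by the Clopper-Pearson method, which covers counting error). With peaks of a score of at least 200 alone, 8.06% were bound. Of the 8 genes, 3 were bound, namely Nefm, Nefh and Ina, and Nefm and Nefh were bound at the stricter score. Because Nefm and its family were picked for that peak, nothing is read from these counts. A gene without a listed peak may still carry weaker signal, as the list holds only peaks that passed the authors' thresholds. Every peak of the list is named after a TSS, so peaks far from TSSs may be missing, and each distance and count of peaks below refers to listed peaks.

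Nefm (ENSMUSG00000022054) is a minus-strand gene of chromosome 14 (68700647 to 68742903). The Dppa2 peak over it extends from 68740959 to 68743948 and has a score of 2290, which is 10.0 times the median score and places it at rank 2 of 3336. The peak is also wide, with 2990 bp against a median of 1433 bp, and ranks 73 by width. It covers all 1107 bp of exon 1, reaches 1045 bp upstream of the TSS and ends 1944 bp downstream of it, inside exon 2. Its midpoint, 450 bp downstream of the TSS, falls in the coding part of exon 1, which encodes the head and the first part of the rod. Of all bound protein-coding genes, 11.3% had their peak centred at least that far downstream, and the median position was 121 bp downstream. No other annotated gene has a TSS within 1000 bp of this midpoint. None of the 36-mers in the peak occurs a second time in mm9 (0%). This count covers exact copies only. The authors' mapping allowed mismatches, and reads from near copies were not tested.

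Nefh (ENSMUSG00000020396) is a minus-strand gene of chromosome 11 (4838757 to 4848067). Dppa2 was found from 4846546 to 4848473, over 1928 bp, with a score of 293 and rank 1165. This score is 1.29 times the median of the list. The peak is centred 558 bp into the gene, again within coding sequence of exon 1, and the peak covers the whole exon of 1007 bp. Among the bound genes of the group it is the most distal peak, and with a window of 500 bp Nefh was no longer bound. Its peak contains 184 CpG and a GC content of 66.1%, higher than in 78.2% of all peaks. None of its 36-mers is repeated. The GC content of the Ina peak was 65.8%, higher than in 76.6% of all peaks. That of the Nefm peak was 59.4%, higher than in 33.4% of all peaks and below their median of 62.0%.

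Ina (ENSMUSG00000034336) is a plus-strand gene of chromosome 19 (47089188 to 47099817). The peak runs from 47088535 to 47090378, over 1844 bp, with a score of 186 and rank 2137, or 0.818 times the median. The peak is centred 268 bp into the gene, in coding sequence of exon 1, and the exon of 1122 bp is covered in full. This peak cannot be ascribed to Ina alone. Nt5c2, a cytosolic nucleotidase gene on the opposite strand, has a TSS 455 bp into exon 1 of Ina, and the midpoint lies 187 bp from that TSS, closer than to the TSS of Ina.

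**Figure D1:**
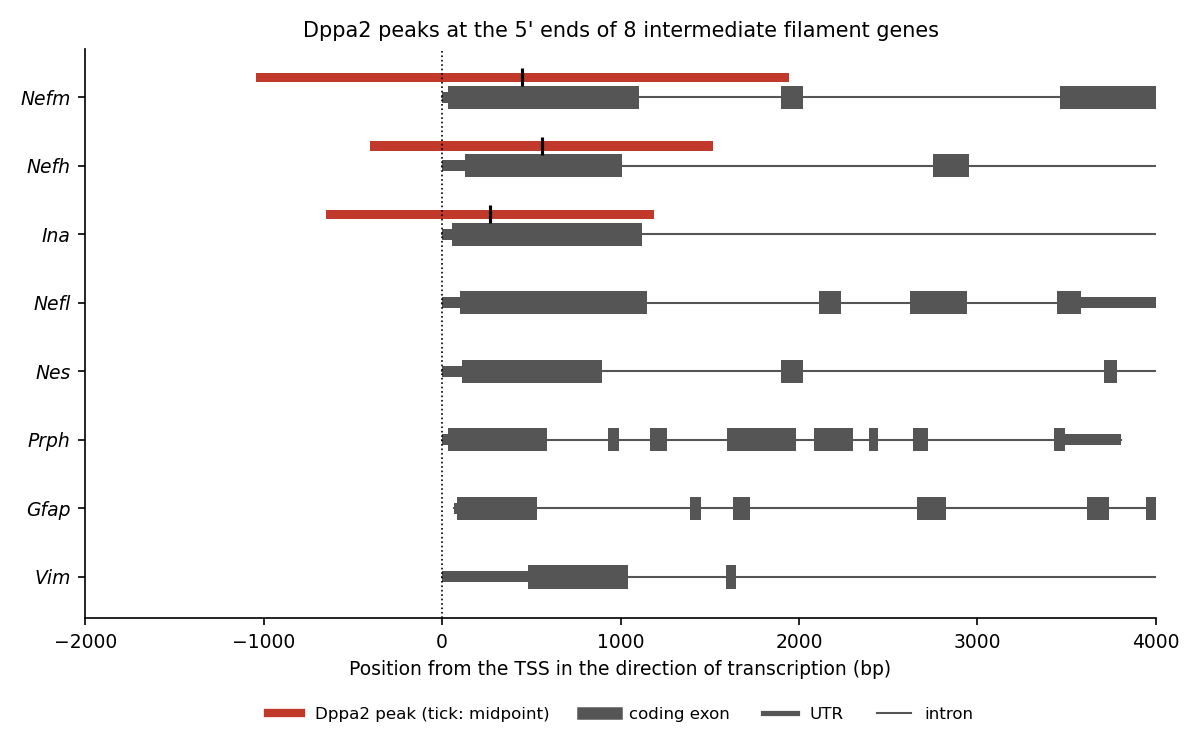
Annotated gene structure from 2000 bp upstream to 4000 bp downstream of the TSS in 8 intermediate filament genes, drawn in the direction of transcription, with the Dppa2 peak as a bar above the gene and a tick at its midpoint. Peaks of 2990, 1928 and 1844 bp lie over the TSS and the whole first exon of Nefm, Nefh and Ina, and the other 5 genes have none in this range.

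The peaks of Nefm, Nefh and Ina had a common layout around the gene. All of them extended further downstream than upstream of the TSS, by 1944 against 1045 bp in Nefm, 1521 against 406 bp in Nefh and 1190 against 653 bp in Ina. Most bound genes share this side, as 69.3% of all bound protein-coding genes had the midpoint downstream of the TSS. Coding sequence made up 37.4% of the Nefm peak, 45.5% of the Nefh peak and 57.8% of the Ina peak. Sequence upstream of the TSS made up 34.9%, 21.1% and 35.4%, in the same order, and introns 26.6%, 26.7% and 3.74%. Midpoints in a coding exon were found in 3 of these 3 genes, and in 26.7% of all bound protein-coding genes. The coding part of exon 1 is long in these genes, with 1074 bp in Nefm, 877 bp in Nefh and 1065 bp in Ina, against a median of 97 bp in all bound protein-coding genes.

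**Figure D2:**
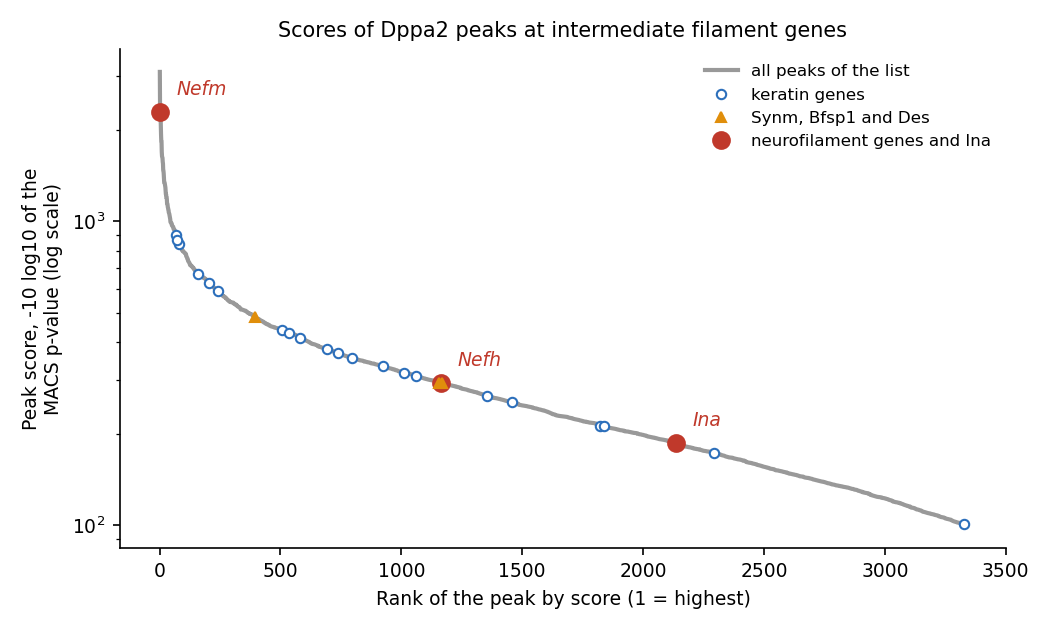
Score of each of the 3336 Dppa2 peaks on a log scale against its rank (grey line), with the peaks at intermediate filament genes marked by class. Nefm stands at rank 2 with a score of 2290, while Nefh, at rank 1165, and Ina, at rank 2137, lie in the middle of the list; Bfsp1 and Des nearly coincide with Nefh.

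The remaining 5 genes had no peak close to the TSS, and the nearest midpoint was between 32.7 kb and 2.47 Mb away. No member lay near the 1000 bp limit: the most distant bound one was Nefh at 558 bp and the closest one without a peak was Prph at 32694 bp. As every listed peak is named after a TSS, the list itself may leave such a gap. Nefl (ENSMUSG00000022055), on the plus strand of chromosome 14 from 68701920 to 68707152, is the neighbour of Nefm, and both genes are transcribed towards each other with their TSSs 41.0 kb apart. The peak nearest to Nefl is that of Nefm itself, 40.5 kb from its TSS, and it is the only listed peak within 500 kb. In the annotation the longer of the 2 Nefm transcripts runs across Nefl on the opposite strand. The member with the highest score and a member with no peak thus share a locus.

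Prph (ENSMUSG00000023484), on chromosome 15 from 98885605 to 98889409, was nearest to a peak at C1ql4, 32.7 kb from its TSS, with a score of 135. Nes (ENSMUSG00000004891), on chromosome 3 from 87775000 to 87784373, lay 40.8 kb from a peak with a score of 254 between Isg20l2 and Rrnad1. Gfap (ENSMUSG00000020932), on chromosome 11 from 102748650 to 102762226, lay 45.1 kb from a peak at C1ql1 with a score of 100, at rank 3329 of 3336. C1ql1 and C1ql4 encode secreted C1q-like proteins. Vim (ENSMUSG00000026728), on chromosome 2 from 13495554 to 13504453, was the most remote, with the nearest listed midpoint 2.47 Mb away and 0 listed peaks within 500 kb, a stretch that holds 6 other protein-coding genes. Around the other genes without a nearby peak, 500 kb on each side of the TSS held 1 peak for Nefl, 3 for Prph, 4 for Nes and 7 for Gfap.

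The nearest coding genes on each side were mostly not bound either, beside a bound share of 14.2% in all protein-coding genes. Next to Nefm these are Nefl and Adam7, next to Nefh Thoc5 and Ap1b1, next to Vim Gm9875 and St8sia6, next to Gfap Fam187a and Kif18b, next to Prph Tuba1c and Troap, and next to Nes Crabp2 and Bcan, and none of these was bound. The neighbours of Nefl are Dock5, which was not bound, and Nefm. On both sides of the Ina TSS the nearest coding TSS is one of Nt5c2, which shares the Ina peak. Of the 7 other protein-coding genes within 500 kb of Nefm, 0 were bound, compared with 5 of 18 around Nefh and 4 of 18 around Ina. The count around Ina includes Nt5c2, which shares the Ina peak. These counts cover listed peaks only, and at a share of 14.2% nothing is read from them.

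Base composition was not used to choose the genes, and bound genes as a whole had CpG-rich TSSs. In 1000 bp around the TSS, the median GC content was 54.8% in all protein-coding genes and 63.2% in bound ones, and the median CpG observed-to-expected ratio was 0.548 and 0.777. GC content was 64.7% in Nefm, 65.9% in Nefh and 67.2% in Ina. It was 63.5% in Prph, 61.3% in Nes, 58.9% in Nefl, 57.0% in Vim and 56.8% in Gfap, so the bound and the other members did not overlap in this window. They did not overlap in 500 bp either, but in 2000 bp Prph, with 62.6%, lay above Nefm, and Nefm and Nes both had 60.4%. In 1000 bp, Prph also lay above the median of all bound genes. No bound share by GC content over all genes is given, so nothing is read from this split. The CpG ratio was 0.904 in Ina, 0.803 in Nefm, 0.796 in Nefl, 0.794 in Nefh, 0.746 in Nes, 0.573 in Prph, 0.524 in Vim and 0.422 in Gfap. Here Nefl lay between Nefm and Nefh, although only the latter pair had a peak, and in windows of 500 and 2000 bp its ratio, 0.960 and 0.864, was above that of Nefm, 0.856 and 0.769. No test was made, as genes are not replicates.

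**Figure D3:**
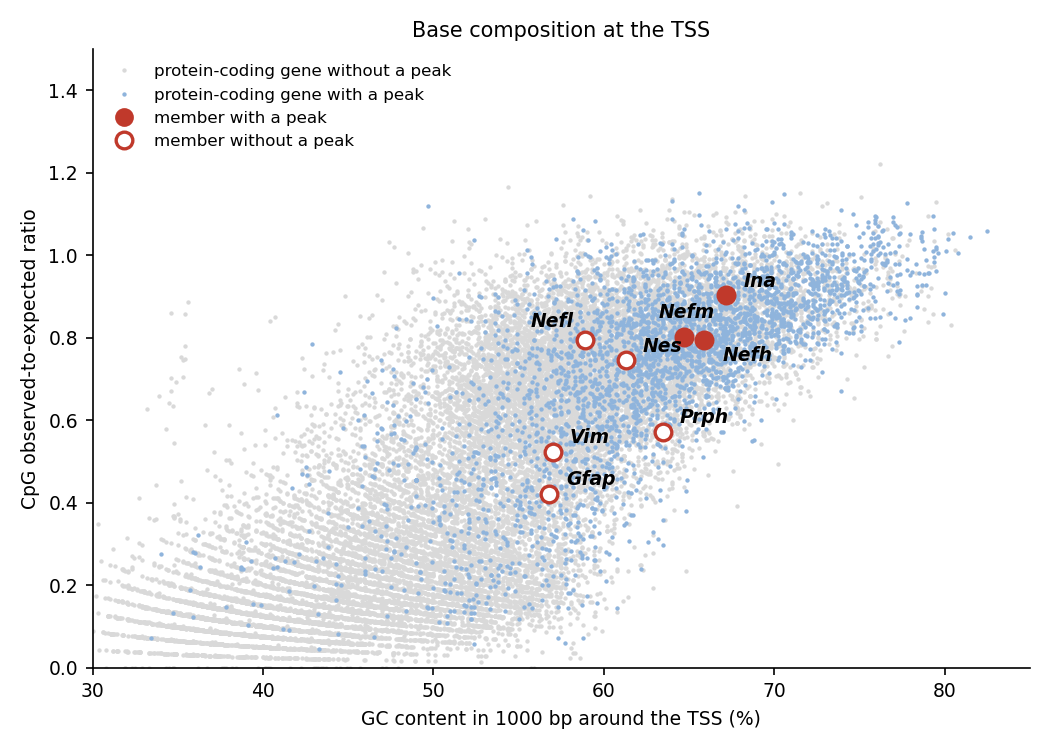
GC content against the CpG observed-to-expected ratio in 1000 bp around the TSS, for all 22367 protein-coding genes (small points, by whether a Dppa2 peak midpoint lay within 1000 bp of a TSS) and for the 8 intermediate filament genes (large circles, filled where bound). Nefm, Nefh and Ina lie among the CpG-rich genes, and Nefl, without a peak, has a CpG ratio of 0.796 but a GC content of 58.9%.

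CpG dinucleotides were concentrated downstream of the TSS in each of the 8 genes. No share over all protein-coding genes is given for this, so it is not read as particular to the group. The 1000 bp downstream held 143 CpG in Nefh, 133 in Ina, 100 in Nefl, 95 in Nes, 93 in Nefm, 76 in Prph, 62 in Vim and 33 in Gfap. The 1000 bp upstream held between 11, in Gfap, and 47, in Nefm and Ina. Downstream CpG thus ranked Nefm, the gene with the highest score, below Nefl and Nes, which had no peak. In the whole peak the CpG ratio was 0.728 in Nefm, close to the median of 0.713 for all peaks, 0.873 in Nefh and 0.906 in Ina. Among the 3 bound genes, the order of the scores was therefore the reverse of the order of the CpG ratios of the peaks, which differ in width. In equal windows this depended on the size. Nefm lay above Nefh in 1000 bp around the TSS, with 0.803 against 0.794, and in 500 bp, with 0.856 against 0.794. In 2000 bp the order was again the reverse, with 0.769 in Nefm, 0.823 in Nefh and 0.912 in Ina. A relation of score and CpG ratio was not tested.

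**Figure D4:**
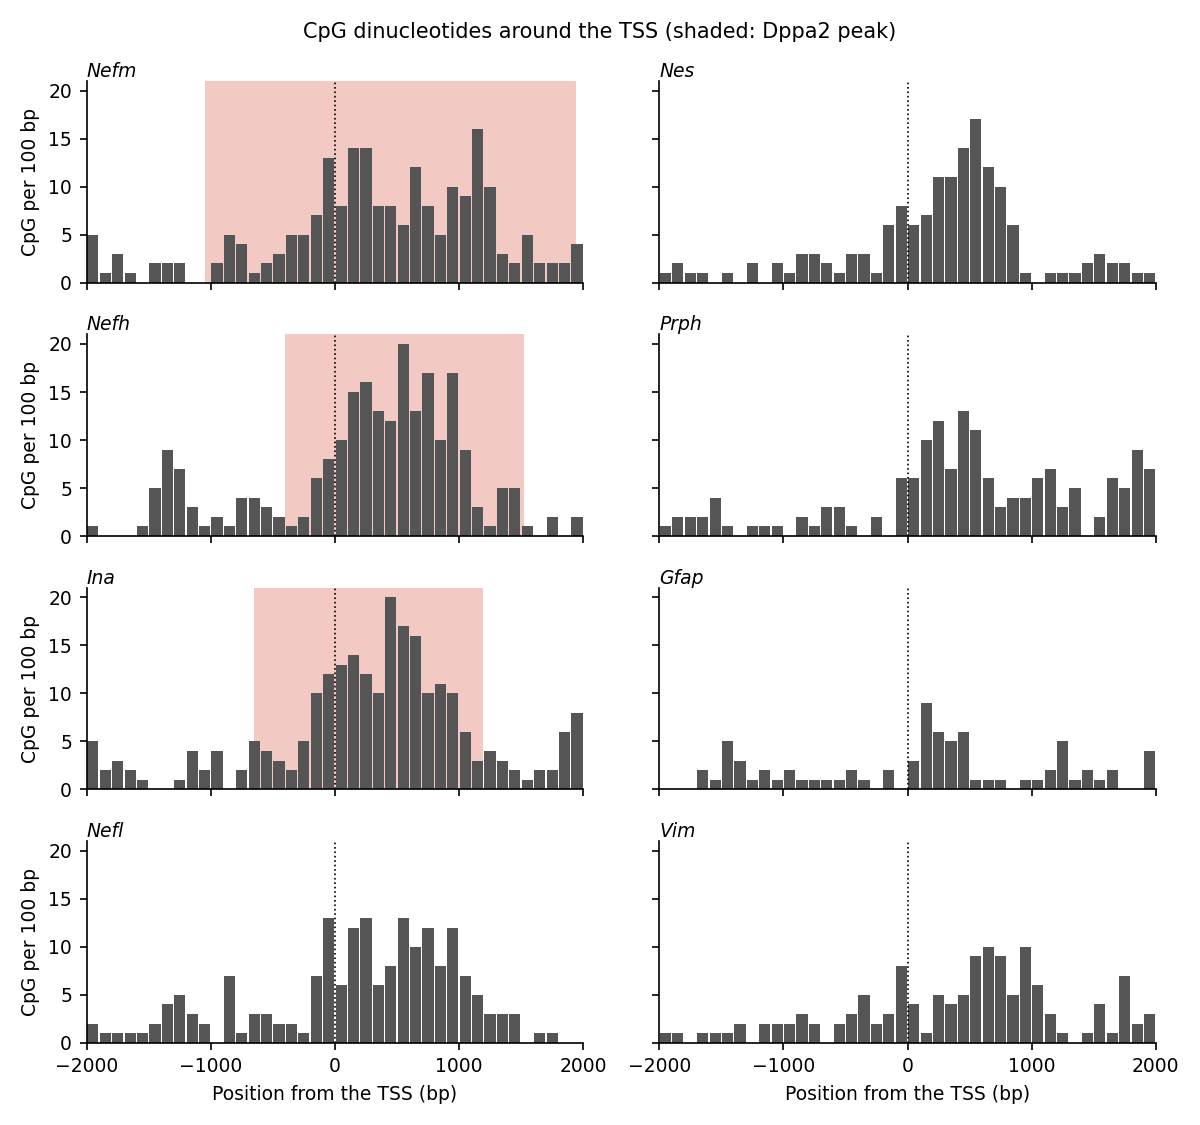
Number of CpG dinucleotides per 100 bp from 2000 bp upstream to 2000 bp downstream of the TSS in the 8 genes, in the direction of transcription, with the Dppa2 peak shaded. In genes with a peak and without one, the 1000 bp downstream of the TSS hold more CpG than the 1000 bp upstream, with 93 and 100 CpG in the 1000 bp downstream of the Nefm and Nefl TSSs.

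The bound share of all genes differed with CpG ratio and with the length of coding sequence in exon 1. Among protein-coding genes with a CpG ratio from 0.75 to below 1, which include Nefm, Nefl, Nefh and Ina, 27.9% were bound, compared with 15.4% at a ratio from 0.5 to below 0.75, where Vim, Prph and Nes lie, and 8.63% at a ratio from 0.25 to below 0.5, where Gfap lies. Among genes with introns and a coding part of exon 1 from 500 to below 1500 bp, which include all members except Gfap, 30.2% were bound (218 of 723), compared with 13.1% without coding sequence in exon 1, 13.3% at 1 to below 250 bp, 25.8% at 250 to below 500 bp, where Gfap lies, and 21.3% at 1500 bp or more (20 of 94). With both features, and leaving out the 8 members, 109 of 231 genes or 47.2% were bound (95% exact interval 40.6 to 53.8%, counting error only). Beside this share, 3 of the 4 members of that kind were bound, Nefl being the exception. With the same exon length and a CpG ratio below 0.75, 19.2% of other genes were bound, beside 0 of the 3 members Vim, Prph and Nes. The features were chosen after the peaks of these genes had been seen.

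Short sequence matches were found at promoters with and without a peak. The window from 250 bp before to 50 bp after the TSS was searched on both strands, in which overlaps between motifs were allowed. The letters TATAAA were present in 13.5% of all protein-coding promoters and 6.28% of bound ones. They occurred in Nefm, Prph and Nefl at 31 to 32 bp before the TSS, and in Nefh at 35 bp after it. The letters GGGCGG, the core of the GC box, were present in 43.9% of all promoters and 68.6% of bound ones, and among the 8 genes in Nefm, Nefh, Ina, Prph and Nes. CCAAT was present in 37.8% of all promoters and 31.3% of bound ones, and among the 8 genes only in Vim. A match is a description of the letters and not of a bound factor.

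The wider intermediate filament family was examined by type. Of 66 family members listed by symbol, 65 were found in the annotation and 27 of these, or 41.5%, were bound, beside 14.2% of all protein-coding genes. The 27 include Nefm, Nefh and Ina, for which the family was chosen. Of the 6 type IV genes, 4 were bound, the fourth being Synm, which encodes synemin, with a score of 485 and a midpoint 377 bp into the gene, also in coding sequence. Of the 4 type III genes only Des, the muscle gene for desmin, was bound, with a score of 293 and a midpoint 281 bp upstream of the TSS. The 3 lamin genes, which encode the nuclear type V proteins, were not bound. Bfsp1, one of the 2 lens filament genes, was bound with a score of 295. The CpG ratio at the TSS was 0.816 in Synm and 0.792 in Bfsp1, and the peaks of both, like those of Nefm, Nefh and Ina, held 0% repeated 36-mers.

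Keratin genes differed from the neurofilament genes in base composition. These type I and type II genes encode the filaments of epithelia, hair and nails, and lie in clusters on chromosomes 11 and 15. Bound were 11 of 27 type I genes, namely Krt12, Krt13, Krt14, Krt16, Krt17, Krt27, Krt28, Krt31, Krt33a, Krt33b and Krt34, with scores from 173 at Krt16 to 903 at Krt33b. Of 23 type II genes, 10 were bound, namely Krt2, Krt4, Krt5, Krt71, Krt72 (annotated as Krt72-ps), Krt79, Krt80, Krt81, Krt83 and Krt86, with scores from 100.5 at Krt86 to 868 at Krt2. The bound keratins had CpG ratios from 0.109 to 0.584, with a median of 0.299, below the 0.794 of Nefh, the lowest value among the bound neurofilament genes and Ina. Their peaks had a median width of 1008 bp, and 18 of 21 midpoints fell in a coding exon. Of 45 keratin genes with a CpG ratio below 0.5 and 250 to below 750 bp of coding sequence in exon 1, 18 were bound, and of 592 other genes of that kind 11.3% were bound. Keratin genes are close paralogues, and in 10 of the 21 peaks more than 10% of the 36-mers occur elsewhere in mm9, up to 44.2% at Krt86. As the authors kept the best alignment of reads with several, the part of reads from paralogues in these scores was not tested.

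Genes whose products work with intermediate filaments or mark the same cells were examined beside the 14.2% of all protein-coding genes that were bound. Of 6 cytolinker genes found in the annotation, which encode the large plakin proteins that tie filaments to other structures, 3 were bound, namely Dst with a score of 205, Evpl with 118 and Plec with 107. Their midpoints lay 232, 24 and 190 bp upstream of the TSS, in contrast to Nefm, Nefh and Ina. Of 15 genes of the neuronal cytoskeleton, among them Tubb3, Map2, Mapt, Dcx and Stmn2, 0 were bound, and the closest midpoint was 4974 bp from Tubb3. Of 10 glial genes, among them S100b and Olig2, 0 were bound as well. Lists of this size hold few bound genes at a share of 14.2%, so nothing is read from these counts.

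**Figure D5:**
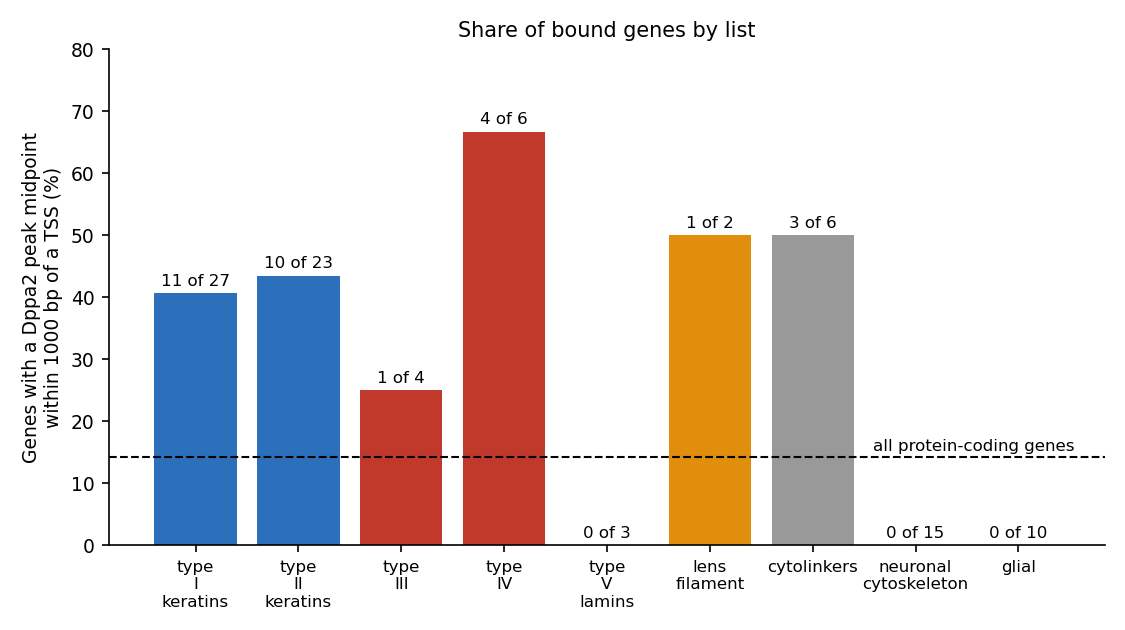
Percentage of genes with a Dppa2 peak midpoint within 1000 bp of a TSS in each gene list, with the number of bound genes of those found in the annotation above each bar and the 14.2% of all protein-coding genes as a dashed line. The type IV bar holds Nefm, Nefh, Ina and Synm as bound genes (4 of 6), and neither the 15 neuronal cytoskeleton genes nor the 10 glial genes had a peak.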

How the data were processed

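The deposited peak list of the V5-Dppa2 ChIP-seq in CGR8 ESCs was analysed; the other 5 samples, for which no peak list was used here, were not analysed. Its values are a score made by the authors with MACS, a -log10 p-value multiplied by 10, against the anti-V5 ChIP of the parental line. The authors filtered low-complexity reads, mapped the rest to mm9 with Bowtie 0.12.7 keeping the best alignment, removed duplicates (Picard 1.81 is named in the submitters' processing notes) and called peaks with MACS 1.4.2. By the paper's methods, Dppa2 peaks were kept only if they passed a p-value limit and held a minimum number of aligned reads. Read depth is unknown, and the list gives no summits.

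Midpoints were compared with every annotated TSS of GENCODE M1, built on mm9. Base composition was computed in 1000 bp around the TSS shared by most protein-coding transcripts. Repeated 36-mers were counted on both strands of mm9. Intervals are exact Clopper-Pearson intervals at 95%. With 1 library, no test was made. On simulated data, 600 of 600 placed peaks received the right distance and call. Of 98 listed symbols, 96 were matched by symbol or synonym.

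The members and gene lists were chosen with earlier results of these data known. Named are the 8 members, every bound gene of the lists and the nearest coding neighbours; the unbound genes given as examples were picked after their values had been seen. Python 3.11.15, numpy 2.4.6, scipy 1.17.1, pysam 0.24.0, numba 0.67.0 and matplotlib 3.10.9 were used. Sequence of the Nefm locus is not reported here.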

Additional observations from a re-analysis of the deposited data

How the results depend on the processing

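No paired analysis was possible because the peak list comes from 1 library, and no replicate could be left out either. At a score of at least 200 Ina was no longer bound, and with a window of 500 bp Nefh was not, so that 2 of the 8 genes were bound under each of these settings. Windows of 2000 or 5000 bp and any base of the peak can only add genes, and no other member became bound. With 1 TSS per gene or TSSs of protein-coding transcripts, Nefm, Nefh and Ina were bound as before. Each of them has 1 annotated TSS, so these settings could not change their call. The number of bound intermediate filament genes, 27 of 65, ranged from 24 to 28. That of all protein-coding genes fell from 3169 to 1802 at the stricter score, as fewer peaks enter, and ranged from 2812 to 3464 under the other settings. The median CpG ratio of the 8 genes, 0.770, was 0.731 with windows of 500 and 2000 bp. The unknown depth limits what can be said of the 5 genes without a peak.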
